A study of Caenorhabditis elegans with 6 samples.

Results

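The BBSome is a protein complex of the cilium, and 8 genes of Caenorhabditis elegans for its subunits and for its partner GTPase are described here: arl-6, bbs-1, bbs-2, osm-12, bbs-9, bbs-4, bbs-8 and bbs-5. They were found by gene name, and bbs-4 by its identifier WBGene00043992, among 46245 genes listed for each of 6 RNA sequencing libraries, and all 8 had a row. The set was drawn up because bbs-4 is higher in one strain while the other BBSome genes are not, so the strain differences of these 8 genes are given as a description, without a test. The libraries came from whole animals grown at 20 °C to late L4, the last larval stage. Both strains carry eat-2(ad465), an allele of a gene for a nicotinic receptor subunit of the pharynx whose mutants feed slowly, and acs-20(tm3232), an allele of a gene for an acyl-CoA synthetase. The reference strain, DCL33, has these alleles alone and is called the reference strain. The second strain, DCL289, carries ptr-8(mkc18) as well, an allele of a patched-related membrane protein gene, and is called the ptr-8 strain. Each had 3 libraries. The labels do not say whether the replicates were separate cultures or how many animals were pooled.

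In animals with cilia, the BBSome rides on the trains of intraflagellar transport (IFT) and moves membrane proteins into and out of the cilium. In mammals ARL6 brings it to the membrane, BBS2, BBS7 and BBS9 form its core, BBS1 binds ARL6, BBS4 and BBS8 are built of tetratricopeptide repeats, and BBS5 binds membrane lipids. In C. elegans only sensory neurons have cilia. Worm bbs mutants have defects of intraflagellar transport and of sensory behaviour, and bbs-4 and bbs-5 act redundantly in the removal of sensory receptors from cilia.

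Levels are FPKM (fragments per kilobase relative to library size) as deposited, divided by a scaling factor per library that ran from 0.869 to 1.33. FPKM is per length, so levels can be set side by side between genes. Relative depth ran from 0.568 in reference replicate 3 to 1.49 in reference replicate 2, with reference replicate 1 set to 1. Depth itself is unknown. The deposited interval around each FPKM was read as 2 standard errors on each side, which implies a number of fragments. For the 7 genes other than bbs-4 this number was at most 68.7 in any library, with a median of 18.9 where the gene was above 0, so each of these levels rests on few fragments. Intervals cover the authors' estimate of error in 1 library, not the spread between libraries. ptr-8 itself was at 23.8, 23.4 and 18.1 in the reference strain against 4.51, 5.12 and 5.73 in the ptr-8 strain (log2 difference -1.89, SE 0.15, limma adjusted p = 0.00528).

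bbs-4 was the BBSome gene whose strains did not overlap. Its scaled FPKM was 0.800, 0.467 and 0.430 in reference replicates 1 to 3 and 3.57, 4.66 and 3.98 in ptr-8 strain replicates 1 to 3. Every ptr-8 strain library lay above every reference library. The mean was 0.566 ± 0.204 (SD, n = 3) in the reference strain and 4.07 ± 0.551 (SD, n = 3) in the ptr-8 strain, a ratio of means of 7.19. On the log2(scaled FPKM + 1) scale used for fits the difference was 1.70, which is smaller than the ratio because the pseudocount of 1 exceeds the reference level. With a pseudocount of 0.1 it was 2.68. These are the values for which the gene was chosen.

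**Figure D1:**
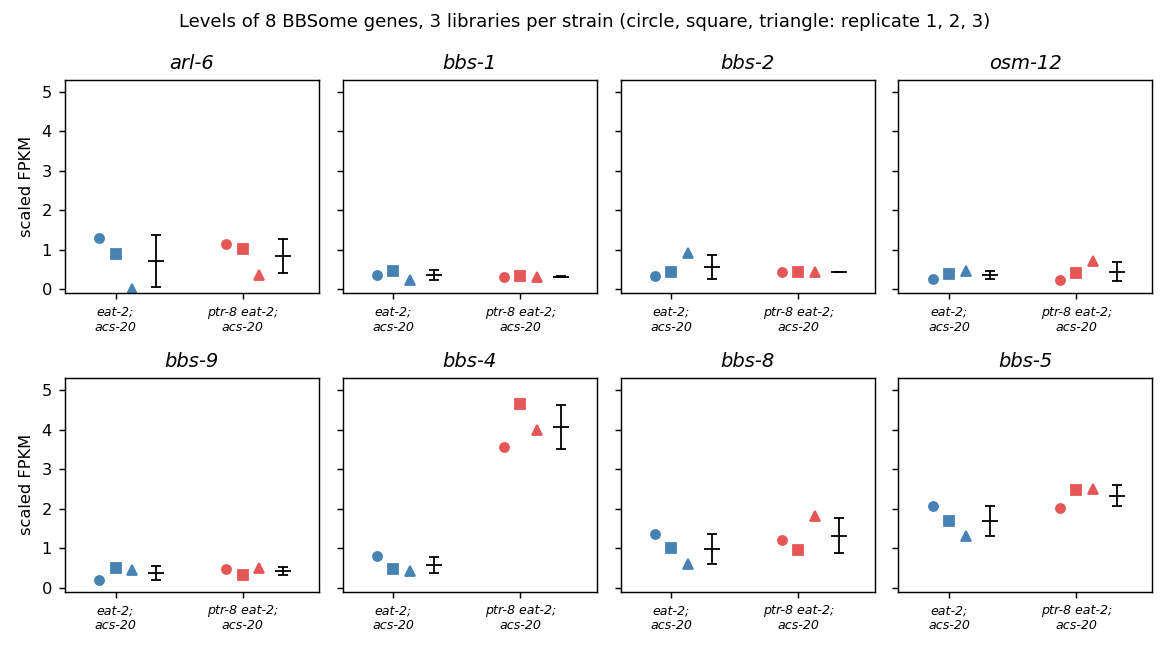
Scaled FPKM (y axis) of 8 BBSome genes in 3 libraries of the reference strain (blue) and 3 of the ptr-8 strain (red), with the mean and SD beside the points of each strain. bbs-4 lies between 0.430 and 0.800 in the first strain and between 3.57 and 4.66 in the second, while the strains overlap for the other 7 genes.

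The deposited intervals of bbs-4 did not meet between strains. Their highest upper bound in the reference strain was 1.27 deposited FPKM, in replicate 1, and their lowest lower bound in the ptr-8 strain was 2.60, in replicate 3. The implied fragment numbers were 15.8, 11.1 and 2.90 in the reference strain against 76.3, 124 and 65.2 in the ptr-8 strain. The reference level is thus the less precise side of the ratio. Divided by relative depth, implied fragments were 9.46 ± 5.62 and 78.0 ± 14.7 (SD, n = 3 each), a ratio of 8.25. That ratio does not use the scaling factors, unlike the 7.19 of scaled FPKM. It comes from the same deposited FPKM and intervals, so it is no independent measure. bbs-4 is the only one of the 8 genes with more than 1 transcript in the Ensembl 115 annotation of WBcel235. Its interval may therefore also hold the doubt about how fragments divide between transcripts, which was not tested.

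**Figure D2:**
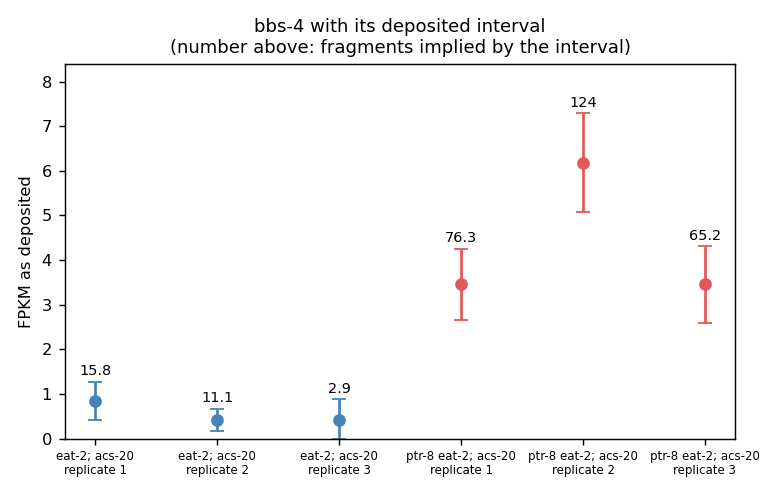
Deposited FPKM of bbs-4 (y axis) in each of the 6 libraries, with the deposited lower and upper bounds as bars and the implied number of fragments above each. The highest upper bound in the reference strain is 1.27 and the lowest lower bound in the ptr-8 strain is 2.60.

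bbs-4 lies on chromosome III, from 9609568 to 9612191 in the files. In the Ensembl annotation it is on the minus strand, with transcripts of 9 and 7 exons and of 1573 and 933 exon bases. The shorter transcript begins inside the third exon of the longer one. The locus in the files runs from the stop codon to the start codon of the longer annotated transcript, so it leaves out the annotated untranslated regions at both ends. The files give 1 value for the gene, and the levels of the transcripts were not analysed here.

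The other 7 genes are spread over 4 chromosomes, given here by the positions in the files and the strand of the annotation, and each has 1 annotated transcript. bbs-5 (WBGene00010974, 10258872 to 10261658), arl-6 (WBGene00000193, 4813309 to 4814814) and osm-12 (WBGene00003892, 12191056 to 12202450) lie on the minus strand of chromosome III, as bbs-4 does, all outside the 25 kb window around it. bbs-1 (WBGene00000241, 14371142 to 14376018) and bbs-9 (WBGene00016744, 6917750 to 6922955) are on the minus strand of chromosome I. bbs-2 (WBGene00000242, 7934097 to 7937746) is on the plus strand of chromosome IV and bbs-8 (WBGene00000244, 6762476 to 6765072) on the minus strand of chromosome V.

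The other subunits with tetratricopeptide repeats or lipid-binding domains, bbs-8 and bbs-5, were the most abundant of the remaining genes. bbs-8 was at 1.36, 1.01 and 0.600 in the reference strain against 1.20, 0.962 and 1.80 in the ptr-8 strain. bbs-5 was at 2.07, 1.70 and 1.30 in the first and at 2.01, 2.47 and 2.49 in the second. Both overlapped between strains, and in both the lowest reference value was that of replicate 3. Their means were 0.988 ± 0.379 and 1.32 ± 0.434 for bbs-8, and 1.69 ± 0.382 and 2.32 ± 0.269 for bbs-5 (SD, n = 3 each). The log2 differences were 0.23 and 0.31.

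The genes of the core and of the subunit that meets the GTPase were low and overlapped between strains. bbs-2 was at 0.346, 0.447 and 0.912 in the reference strain against 0.432, 0.440 and 0.450 in the ptr-8 strain. osm-12, which encodes worm BBS7, was at 0.267, 0.392 and 0.454 and at 0.227, 0.405 and 0.708. For bbs-9 the values were 0.187, 0.510 and 0.438 in reference libraries against 0.462, 0.318 and 0.489 in ptr-8 strain libraries. In all of these at least 1 ptr-8 strain library lay inside the range of the reference strain. bbs-1 was at 0.366, 0.475 and 0.234 in the reference strain against 0.321, 0.347 and 0.310 in the ptr-8 strain, all of the latter inside the reference range. The log2 differences of bbs-2, osm-12, bbs-9 and bbs-1 were -0.11, 0.07, 0.05 and -0.03.

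arl-6, the GTPase gene, spread most among replicates of 1 strain. It was at 1.29, 0.884 and 0 in the reference strain against 1.15, 1.03 and 0.366 in the ptr-8 strain. Replicate 3 was the lowest in each strain. In reference replicate 3, the shallowest library, arl-6 is listed at 0. The implied numbers above 0 were 7 or fewer fragments per library.

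Across the 7 genes other than bbs-4, 5 had a higher and 2 a lower mean in the ptr-8 strain, and the log2 differences ran from -0.11 to 0.31 with a median of 0.07. With 1 library left out the direction turned in 5 of these 7 genes, in arl-6 (-0.20 to 0.40), bbs-1 (-0.10 to 0.03), bbs-2 (-0.21 to 0.05), osm-12 (-0.06 to 0.18) and bbs-9 (-0.05 to 0.12). For bbs-8 the log2 difference ran from 0.08 to 0.36 and for bbs-5 from 0.21 to 0.41. The median over all 15206 genes that passed the filter on level was 0.01, with quartiles of -0.22 and 0.19. Those genes are more abundant, with a median level of 18.8. The pseudocount of 1 exceeds the mean of most of these 7 genes and draws their differences towards 0. With a pseudocount of 0.1 the differences of the 7 ran from -0.21 in bbs-2 to 0.76 in arl-6. Of the 8 genes, bbs-4 alone did not overlap between strains. Among all tested genes 13.7% did not overlap with the ptr-8 strain higher, and since the set was chosen for this contrast nothing is read from that count. The filter asked for 3 or more libraries at a scaled FPKM of 1 or above and was passed by 4 of the 8 genes, arl-6, bbs-4, bbs-8 and bbs-5. bbs-4 passed through the ptr-8 strain libraries alone, so a gene of its level could pass only by differing.

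The order of levels changed at its top. In the reference strain the order by mean was bbs-5, bbs-8, arl-6, bbs-2, bbs-4, bbs-9, osm-12 and bbs-1, and each gene overlapped with the next. bbs-5 was above bbs-8, and bbs-8 above arl-6, in 3 of 3 libraries. In the ptr-8 strain bbs-4 came first and bbs-5 second, without overlap between them or between bbs-5 and bbs-8. From bbs-8 down each gene again overlapped with the next. The sum over the 8 genes was 6.68, 5.88 and 4.37 in the reference strain against 9.37, 10.6 and 10.6 in the ptr-8 strain. bbs-4 made up 11.97%, 7.94% and 9.84% of that sum in reference libraries, against 38.0%, 43.8% and 37.5% in the ptr-8 strain. Without bbs-4 the sum was 5.88, 5.41 and 3.94 in the reference strain against 5.81, 5.97 and 6.62 in the ptr-8 strain, which overlap.

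**Figure D3:**
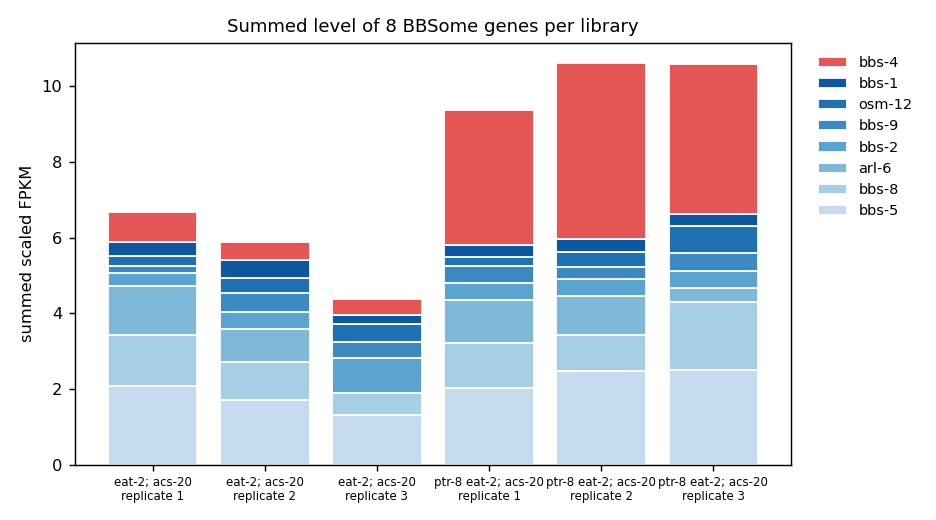
Summed scaled FPKM (y axis) of 8 BBSome genes in each library, with bbs-4 in red and the other 7 genes in shades of blue. The bbs-4 part is 7.94% to 11.97% of the bar in the reference strain and 37.5% to 43.8% in the ptr-8 strain.

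Reads of overlapping genes could add to a gene's level, since whether the libraries keep strand is not given in the sources used here. No listed gene overlaps bbs-4, in the files or in the Ensembl annotation. The nearest gene is pri-1, for a DNA primase subunit, which lies upstream on the same strand with 94 bases between the loci in the files and 56 in the annotation. pri-1 was at 30.2, 31.9 and 32.8 in the reference strain against 33.5, 35.6 and 35.5 in the ptr-8 strain. It was far more abundant than bbs-4 and differed by a log2 of 0.14 (SE 0.08, limma adjusted p = 0.384). The strains did not overlap for pri-1 either, with the ptr-8 strain higher, as in 13.7% of all tested genes. The nearest tested gene downstream was the pseudogene F58A4.12, 7126 bases away, with 4.07 ± 2.17 and 5.98 ± 1.62 (SD, n = 3 each; log2 difference 0.52, SE 0.32, limma adjusted p = 0.404). Neither passed the test in any of the alternatives tried, where adjusted p from limma ran from 0.340 to 0.811 for pri-1 and from 0.0894 to 0.686 for F58A4.12. clec-161, a C-type lectin gene 879 bases downstream, lay between 0 and 0.373 in all 6 libraries and was not tested.

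Of the 12 tested neighbours within 25 kb of bbs-4, a window set after the values were seen, 0 were called higher and 1 lower in the ptr-8 strain by limma at an adjusted p below 0.05. Over all tested genes 0.349% were called higher and 1.93% lower. The called gene, acox-1.5, for an acyl-CoA oxidase, was picked out by its value. It was at 56.8, 68.5 and 147 in the reference strain against 15.1, 15.6 and 18.4 in the ptr-8 strain (log2 difference -2.28, SE 0.35, limma adjusted p = 0.0347). Its strains do not overlap, and its change has the opposite direction to that of bbs-4. The call was lost without reference replicate 2 (limma adjusted p = 0.0988), and leaving out replicate 1, 2 or 3 of the ptr-8 strain gave limma adjusted p = 0.119, 0.0951 and 0.122. It was also lost with no filter on level and with replicate number as a block (limma adjusted p = 0.0540 in both).

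**Figure D4:**
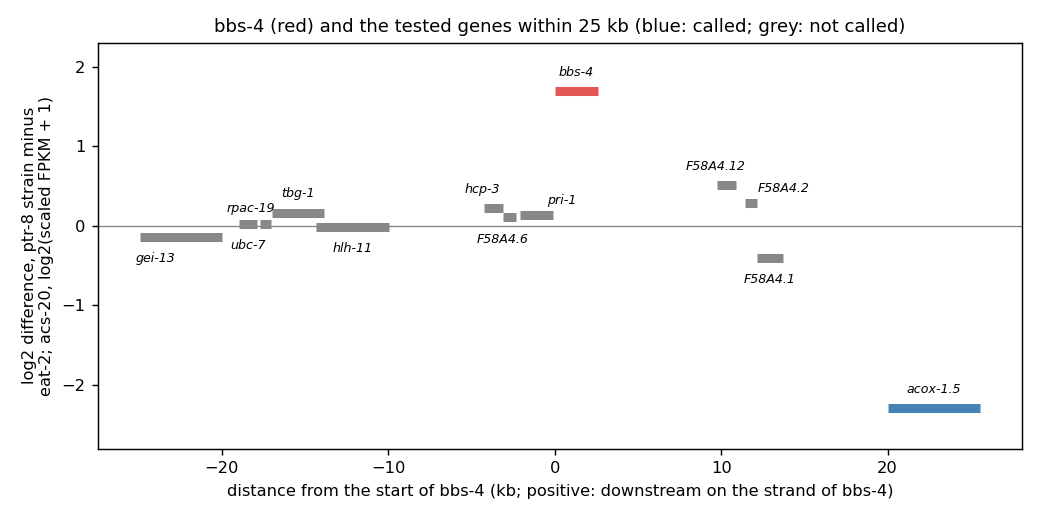
Log2 difference between strains on the log2(scaled FPKM + 1) scale (y axis) of bbs-4 and the tested genes within 25 kb, drawn as bars from start to end by distance from the start of bbs-4 in kb (x axis). bbs-4 stands at 1.70 and its neighbour pri-1 at 0.14, and the neighbour called by limma, acox-1.5, stands at -2.28.

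Among the other 7 genes, overlaps were few. Y75B8A.44 lies on the opposite strand within osm-12, and their annotated exons share 0 bases. It was at 2.33, 6.64 and 5.18 in the reference strain against 2.61, 6.36 and 3.62 in the ptr-8 strain (log2 difference -0.12, SE 0.39, limma adjusted p = 0.888). Its replicates spread more widely than its strains. The noncoding genes Y75B8A.54, inside osm-12, and Y105E8A.47 and Y105E8A.49, inside bbs-1, are listed at 0 in all 6 libraries. In the annotation, but not in the files, inpp-4B meets the start of bbs-5.

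The genes whose profile over the 6 libraries was most like that of bbs-4 are given as a description. Likeness was the mean absolute difference of log2(scaled FPKM + 1), each gene centred on its own mean, among 15205 tested genes. The nearest 5 were rdl-1, F55G11.4, C14C6.5, ZK673.1 and F22F7.7, at 0.112, 0.114, 0.116, 0.131 and 0.137 from bbs-4. rdl-1 was at 3.48, 2.76 and 2.19 in the reference strain against 9.56, 10.96 and 8.79 in the ptr-8 strain. The profile holds the strain difference for which bbs-4 was chosen, so genes with a like difference come nearest. In these 5 the log2 difference ran from 1.51 to 1.76. None of the 5 is in the ciliary lists described below, which hold only 33 of the genes compared, and nothing is read from that.

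No gene of the wider ciliary lists was called. Lists of 60 further ciliary genes, covering IFT-B, IFT-A, transport motors, the transition zone and other ciliary proteins, had 59 members in the files, and 33 passed the filter. Of these 33, 0 were called higher and 0 lower by limma at an adjusted p below 0.05, while 2.28% of all tested genes were called. At an unadjusted p below 0.05 there were 4 of 33, 12.1%, against 20.6% of all tested genes. The median log2 difference was -0.01, and none of the 33 reached that of bbs-4. The listed genes are low, with a median reference mean of 1.09 over the 59, of which 29 had a mean below 1. The median level of all tested genes was 18.8, so the shares do not compare genes of like level. The strains did not overlap in 4 of 33 with the ptr-8 strain higher and 3 of 33 with it lower, against 13.7% and 13.9% of all tested genes. All 3 lower genes, osm-3, klp-11 and dylt-2, were among the 5 tested motors. Summed levels over whole lists, given without a test, did not overlap between strains for the motors (31.3 to 39.6 in the reference strain, 25.7 to 29.1 in the ptr-8 strain), IFT-B (18.03 to 22.2, then 23.8 to 27.2) and the transition zone (33.2 to 35.8, then 36.5 to 38.0). They overlapped for IFT-A and for the other ciliary genes. Such sums are weighted towards abundant genes. Without overlap between strains, hyls-1 held 20.5 to 26.6 and then 28.0 to 28.4 of the transition zone sum. ift-20 held 0.880 to 3.30 and then 6.31 to 7.08 of the IFT-B sum. klp-11 held 17.9 to 25.2 and then 14.3 to 17.6 of the motor sum. For IFT-B and the transition zone the sums therefore do not show that the remaining genes of the list moved together. The motor sum does not rest on klp-11 alone, since osm-3 and dylt-2 were also lower without overlap. Against that, klp-20, che-3, xbx-1 and klp-6 had a higher mean in the ptr-8 strain. Whether the motors moved together was not tested. Over all 59, whether tested or not, 33 had a lower and 26 a higher mean in the ptr-8 strain.

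IFT-B trains carry cargo towards the tip of the cilium, and the largest difference among the tested ciliary genes was in their gene ift-20. It was at 2.53, 3.30 and 0.880 in the reference strain against 7.06, 6.31 and 7.08 in the ptr-8 strain. The strains did not overlap, with a ratio of means of 3.04 and a log2 difference of 1.35, but it did not pass (SE 0.31, limma adjusted p = 0.0944). It was called on FPKM without scaling between libraries (limma adjusted p = 0.0371), and adjusted p over the other alternatives ran up to 0.269. In the annotation ift-20 overlaps spe-5 on the opposite strand. Over all 6 libraries ift-20 and che-13 were the most abundant IFT-B genes, ift-20 only through its ptr-8 strain level. In the reference strain the mean of ift-20, 2.24, lay below those of che-13, dyf-3 and dyf-6. che-13 was at 4.121 ± 0.677 and 3.14 ± 0.613 (SD, n = 3 each; limma adjusted p = 0.346). osm-6, whose values are named here for an unadjusted p below 0.05, was at 0.589 ± 0.0387 and 1.26 ± 0.202 (limma adjusted p = 0.155). Like bbs-4 it passed the filter through the ptr-8 strain libraries alone.

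IFT-A serves the way back from the tip, and its 2 tested genes overlapped between strains. ift-43 was at 41.7 ± 1.85 and 40.0 ± 5.90 and dyf-2 at 1.47 ± 0.0305 and 1.26 ± 0.192 (SD, n = 3 each; limma adjusted p = 0.780 and 0.635). Among the motors, klp-11 of kinesin-II was at 17.9, 25.2 and 22.7 in the reference strain against 17.6, 14.3 and 16.7 in the ptr-8 strain, without overlap and without passing (log2 difference -0.41, SE 0.15, limma adjusted p = 0.214). klp-20, of the same motor, was at 6.54 ± 0.244 and 6.56 ± 0.478 (limma adjusted p = 0.995). osm-3, the kinesin of the outer part of the cilium, was at 2.08 ± 0.0367 and 1.49 ± 0.259 (SD, n = 3 each; log2 difference -0.31, SE 0.14, limma adjusted p = 0.283). dylt-2, a dynein light chain gene named for an unadjusted p below 0.05, was at 2.35, 2.33 and 1.04 in the reference strain against 0.522, 0 and 0.829 in the ptr-8 strain (log2 difference -1.01, SE 0.31, limma adjusted p = 0.163). The lowest reference and the highest ptr-8 strain value of dylt-2 lay close together, and it passed the filter through the reference libraries alone. In the annotation klp-11 overlaps F20C5.11 and dylt-2 overlaps acs-22.

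The transition zone is the gate at the base of the cilium. In the list drawn up under that name the most abundant genes were hyls-1, at 23.8 ± 3.09 and 28.2 ± 0.183, and mksr-2, at 2.26 ± 0.202 and 1.51 ± 0.695 (SD, n = 3 each; limma adjusted p = 0.289 and 0.358). The place of hyls-1 in this list was set beforehand and is not shown by these data. It stood far above the other listed genes and made up most of the sum of the list. Of the other ciliary genes, ccpp-1, a tubulin deglutamylase gene, was at 15.0 ± 1.09 and 17.7 ± 0.678, and che-10, for rootletin, at 7.88 ± 0.135 and 7.13 ± 1.05 (limma adjusted p = 0.251 and 0.573). daf-19, named for its role as the RFX factor that drives ciliary genes, was at 4.22 ± 0.338 and 4.15 ± 0.523 (limma adjusted p = 0.937). None of these 5 genes passed.

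**Figure D5:**
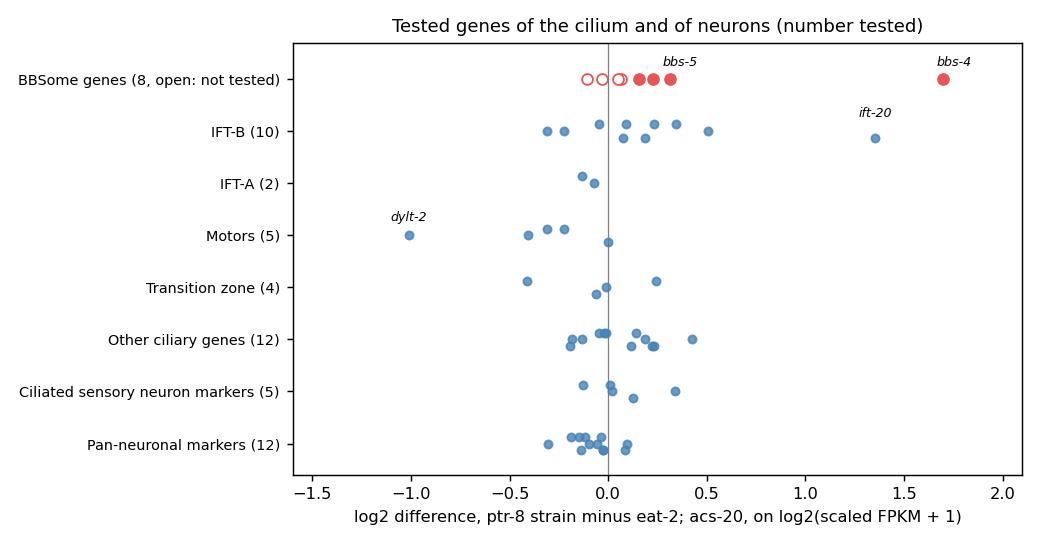
Log2 difference between strains on the log2(scaled FPKM + 1) scale (x axis) for 8 BBSome genes (red) and for the tested genes of 5 ciliary lists and 2 neuronal lists (blue, number tested in brackets). Open red points, marked as not tested, did not pass the filter on level. Filled red points passed it, and their differences too are a description without a test. bbs-4 stands at 1.70 and ift-20 at 1.35, and every other gene shown lies between -1.01 and 0.51.

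Neuronal markers were read against the 2.28% of all tested genes that limma called and the 20.6% at an unadjusted p below 0.05, shares at which lists this short would hold few calls or none. Of 19 markers of ciliated sensory neurons, 14 had a mean below 1 over the libraries, among them the fate regulators che-1 and odr-7 at or near 0, and 5 were tested. Of these 5 markers 0 were called by limma, with 0 at an unadjusted p below 0.05, and their median log2 difference was 0.02. Over all 19, tested or not, only osm-9, gpa-3, gpa-13, lov-1 and che-1 had a lower mean in the ptr-8 strain. The summed level of the 19 lay between 51.8 and 60.3 in the reference strain and between 55.9 and 65.3 in the ptr-8 strain, which overlap. odr-4 was at 42.4 ± 4.37 and 46.2 ± 3.68, most of that sum, and odr-3 at 2.37 ± 0.338 and 3.28 ± 0.681 (SD, n = 3 each; limma adjusted p = 0.557 and 0.312). All 12 pan-neuronal markers were tested and 0 were called by limma, with 1 at an unadjusted p below 0.05. That gene, unc-64, was at 54.4 ± 3.92 and 43.7 ± 1.16, and the most abundant of the list, snb-1, at 358 ± 26.7 and 315 ± 44.4 (limma adjusted p = 0.140 and 0.447). unc-64 was lower in the ptr-8 strain without overlap. The median log2 difference of this list was -0.08, and only rab-3 and unc-119 had a higher mean in the ptr-8 strain. Its summed level was 548 to 604 in the reference strain and 481 to 577 in the ptr-8 strain, which overlap. In whole animals a change in the number of cells of a type and a change in RNA per cell cannot be told apart.

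A marker of stage had, like bbs-4, non-overlapping levels with the ptr-8 strain higher, but did not pass the test. col-19, a collagen gene of the adult cuticle, was at 422, 217 and 74.5 in the reference strain against 738, 591 and 851 in the ptr-8 strain (limma adjusted p = 0.165). In the reference strain both genes were highest in replicate 1 and lowest in replicate 3, while in the ptr-8 strain replicate 2 had the highest bbs-4 and the lowest col-19. Of 4 adult-stage collagen genes, 0 were called by limma and 2 had an unadjusted p below 0.05, against 2.28% and 20.6% of all tested genes. Their summed level was 1402 to 1591 in the reference strain and 1771 to 2161 in the ptr-8 strain, and the most abundant, col-63, had the lower mean in the ptr-8 strain (1087 ± 208 and 922 ± 53.9). col-62 was at 57.6 ± 52.6 and 143 ± 37.3 and col-7 at 85.6 ± 82.0 and 194 ± 56.3 (limma adjusted p = 0.234 and 0.270). Of the 4 genes, col-19 alone did not overlap between strains. The part of stage in the bbs-4 difference was not tested.

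The background share itself depends on single libraries. limma called 346 of 15206 genes, 53 higher and 293 lower in the ptr-8 strain, at an adjusted p below 0.05. It called 675, 84 and 62 when reference replicate 1, 2 or 3 was left out. Leaving out replicate 1, 2 or 3 of the ptr-8 strain gave 98, 162 and 77. On FPKM without scaling 66 genes were higher and 178 lower, so that rises made up 27.0% of calls and not 15.3%. Without scaling the median log2 difference of all tested genes was 0.10, and that of bbs-4 was 1.76. The log2 difference of bbs-4 lay between 1.61 and 1.80 with any 1 library left out.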

How the data were processed

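RNA was measured in whole late L4 animals, 3 libraries per strain. FastQC 0.11.5, TopHat2, HTSeq and DESeq2 are listed, with no role, in the submitters' processing notes, and the genome build is not given in the sources used here. The authors deposited an FPKM with lower and upper bounds for 46245 genes per library, in the layout of a Cufflinks table, per the file headers. Positions are those of the files, raised by 1 at the start. Of the identifiers 45990 matched Ensembl 115 (WBcel235), all on the same chromosome and 97.7% within 1000 bp.

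FPKM was divided by a trimmed mean of log ratios against the mean log library (trimming the outer 30% of ratios and the outer 5% of mean levels on each side). Loci under 200 bp (22932) and 10 genes marked FAIL were left out, and 15206 genes that reached a scaled FPKM of 1 in 3 or more libraries were tested. limma 3.58.1 in R 4.3.3 (intensity trend on, strain as the only term) was fitted to log2(scaled FPKM + 1), with Benjamini-Hochberg adjustment over all tested genes and a threshold of 0.05. It was tested on simulated data. Differences are ptr-8 strain minus reference strain, and p-values measure the spread between libraries, which may be technical. Relative depth is the median ratio of FPKM per implied fragment over 7321 genes with 1 transcript and at least 30 implied fragments in every library. Implied numbers of at most 30, in single-transcript genes, lay within 0.1 of a whole number in 79.4% to 81.7% of cases per library.

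Members and lists were chosen with earlier results of these data known. Named are the members, genes that overlap them, the nearest tested gene on each side of bbs-4, the 5 nearest profiles, called genes and the 2 most abundant of each ciliary or marker list, and others where said. Alternatives were other scalings, filters and pseudocounts, leaving out each library, and a block for replicate number.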

Additional observations from a re-analysis of the deposited data

How the results depend on the processing

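The log2 difference of bbs-4 moved by more than its replicate SD only with a pseudocount of 0.1, to 2.68. It was 1.69 with median-of-ratios scaling, 1.70 with upper-quartile scaling, 1.76 on FPKM without scaling, and 1.61 to 1.80 with 1 library left out. Of the other 7 BBSome genes, arl-6 moved by more than its SD, to 0.76 with a pseudocount of 0.1. With 1 library left out, 5 of these 7 genes changed direction (arl-6, bbs-1, bbs-2, osm-12 and bbs-9), and bbs-8 and bbs-5 did not. The number of ciliary genes called was 0 in all settings, each library left out included, except on FPKM without scaling, where the median of all genes shifted by 0.10 and the number was 1, ift-20, higher in the ptr-8 strain. On those values the lower calls over all genes fell from 293 to 178. With 1 library left out, all calls ran from 62 to 675, higher calls from 14 to 277, lower calls from 44 to 398 and ciliary calls from 0 to 0. The log2 difference of Y75B8A.44 turned positive without reference replicate 2 (0.13) or ptr-8 strain replicate 1 (0.11), and ran from -0.47 to 0.13 with any 1 library left out; the cause was not tested.

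Replicate numbers are shared between strains. The deviations of same-numbered libraries from their strain means correlated across genes at 0.25, 0.05 and 0.03, not every library correlated best with its own number, and the numbers were taken as names. With a replicate block limma called 160 genes, 26 higher and 134 lower. Fragment numbers limit the reading of bbs-1, bbs-2, osm-12, bbs-9 and arl-6, of which all but arl-6 failed the filter and which all rest on few fragments.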
